A study of Rattus norvegicus with 2 samples.

Results

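The mast cell genes described here are 10 rat genes taken by name, 10 of the 15159 genes that a probe of the array could be matched to: Cpa3, Tpsab1, Tpsb2, Cma1, Mcpt1, Kit, Fcer1a, Ms4a2, Hdc and Tph1. The rule is the names alone, although the list was drawn up with earlier results of these data known. The samples were arteries of the rat brain, read on 2 Agilent expression arrays with 1 dye each, in which 1 library came from arterial wall of the brain labelled normal and untreated (control) and the other from an aneurysm lesion 3 weeks after its induction. The labels give no strain, sex, age or method of induction, and do not say how many animals were pooled. With 1 array per group no difference has a replicate check, no test was possible and every value describes these 2 libraries only. Both are bulk tissue, so fewer cells of a type and less RNA per cell cannot be told apart.

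Mast cells are resident immune cells that mature in tissues, often along blood vessels, under the growth factor SCF (Kitlg) acting on its receptor Kit. They bind IgE through a receptor whose alpha and beta chains are Fcer1a and Ms4a2, and antigen that crosslinks this receptor makes them release granules. The granules hold tryptases (Tpsab1, Tpsb2), chymases (Cma1, Mcpt1) and carboxypeptidase A3 (Cpa3), as well as histamine, made by histidine decarboxylase (Hdc), and in rodents serotonin, made by tryptophan hydroxylase 1 (Tph1). In the rat, connective tissue mast cells typically carry Mcpt1 and Cpa3, while histidine decarboxylase, Tph1 and Kit are also used by other cell types.

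The regions just upstream of the granule genes and of Hdc are given first because the members farthest from 0 are among them (Hdc, Cma1, Tpsab1 and Mcpt1), with the other tryptase, the carboxypeptidase and Mcpt1l1, a near copy of Mcpt1, for comparison. GATA2 and GATA1 are transcription factors of the mast cell lineage, and their core letters GATAA, on either strand, are in capitals (TTATC would be the same letters on the opposite strand). Each line holds the 120 bases before the annotated start, 5′ to 3′ in the direction of the gene, from RefSeq on GRCr8, a later build than the array's design.
Cpa3, chr2:104673238-104673357, minus strand: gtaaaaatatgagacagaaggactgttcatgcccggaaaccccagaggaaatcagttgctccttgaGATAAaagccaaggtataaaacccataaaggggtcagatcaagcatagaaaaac
Tpsab1, chr10:14867303-14867422, minus strand: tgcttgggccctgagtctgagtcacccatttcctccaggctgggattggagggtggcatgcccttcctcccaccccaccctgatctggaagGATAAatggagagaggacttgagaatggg
Tpsb2, chr10:14886190-14886309, plus strand: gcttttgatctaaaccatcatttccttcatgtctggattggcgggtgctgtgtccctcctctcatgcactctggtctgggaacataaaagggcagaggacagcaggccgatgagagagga
Cma1, chr15:33390134-33390253, minus strand: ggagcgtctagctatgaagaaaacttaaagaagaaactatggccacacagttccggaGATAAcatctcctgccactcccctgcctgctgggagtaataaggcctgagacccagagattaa
Mcpt1, chr15:33841486-33841605, plus strand: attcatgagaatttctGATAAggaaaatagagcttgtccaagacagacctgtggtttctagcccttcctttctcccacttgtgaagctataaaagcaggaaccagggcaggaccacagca
Mcpt1l1, chr15:33876896-33877015, minus strand: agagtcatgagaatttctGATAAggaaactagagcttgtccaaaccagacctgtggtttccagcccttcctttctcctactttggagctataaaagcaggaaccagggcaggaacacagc
Hdc, chr3:134318705-134318824, minus strand: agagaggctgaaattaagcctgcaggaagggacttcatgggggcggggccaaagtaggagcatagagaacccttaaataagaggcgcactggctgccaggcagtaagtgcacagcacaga
Over 250 bases before the start, GATAA on either strand was present in 5 of the 9 members with an entry (Cpa3, Tpsab1, Cma1, Mcpt1 and Fcer1a) and in 23.5% of 33469 rat promoters of the same length. Its first base lay at −54 in Cpa3, −29 in Tpsab1 (with another, on the opposite strand, at −180), −63 in Cma1 and −104 in Mcpt1, counted from the start. The longer TGATAA, which contains GATAA, was found in Mcpt1 alone among the 9, against 7.97% of all promoters. The E-box letters CANNTG were present in 6 of 9 and in 65.5% of all. TATAAA on the gene's own strand was present in Cpa3, Fcer1a and Mcpt1 and in 8.06% of all. Tpsb2, Hdc, Kit and Tph1 held no GATAA in this window. Kit differed in base composition, with 70.8% G or C and 20 CG pairs over 250 bases, against medians of 51.2% and 5 over all promoters. These are matches of letters and no binding was measured. The promoters of Mcpt1 and of its neighbour Mcpt1l1 were identical at 77.1% of aligned positions, while the other 44 pairs compared had 43.7% to 55.7%, Tpsab1 with Tpsb2 being the highest at 55.7%.

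Most mast cell genes were at the limit of what the arrays detect. The scanner software calls a spot well above background from its signal and the background noise, and a gene was called so when at least as many spots of one of its probes carried the flag as did not. By this rule 5 of the 10 members passed in the control library, where 76.1% of all genes did. In the aneurysm library 4 of 10 passed, against 76.9% of all genes. Tpsab1, Tpsb2 and Kit passed in both libraries, Cma1 and Hdc in the control only, and Mcpt1 in the aneurysm only. The remaining 4, Cpa3, Fcer1a, Ms4a2 and Tph1, passed in neither, which held for 21.0% of all genes. Of the 31 spots of the 12 member probes on each array, 8 were well above background on the control array and 7 on the aneurysm array. Under the software's less strict flag, positive and significant against local background, the counts were 19 and 17 of 31. The 308 negative control spots show the floor: their median processed signal was 3.40 on the control array and 3.10 on the other, with 95th percentiles of 3.90 and 3.58. Of them, 8 and 4 were positive and significant by the less strict flag. On the control array the highest negative control spot reached 32.1 and the next 13.0, while on the aneurysm array the highest was 5.61. Kit apart, the mean signals of all member probes lay under 50 units on both arrays.

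**Figure D1:**
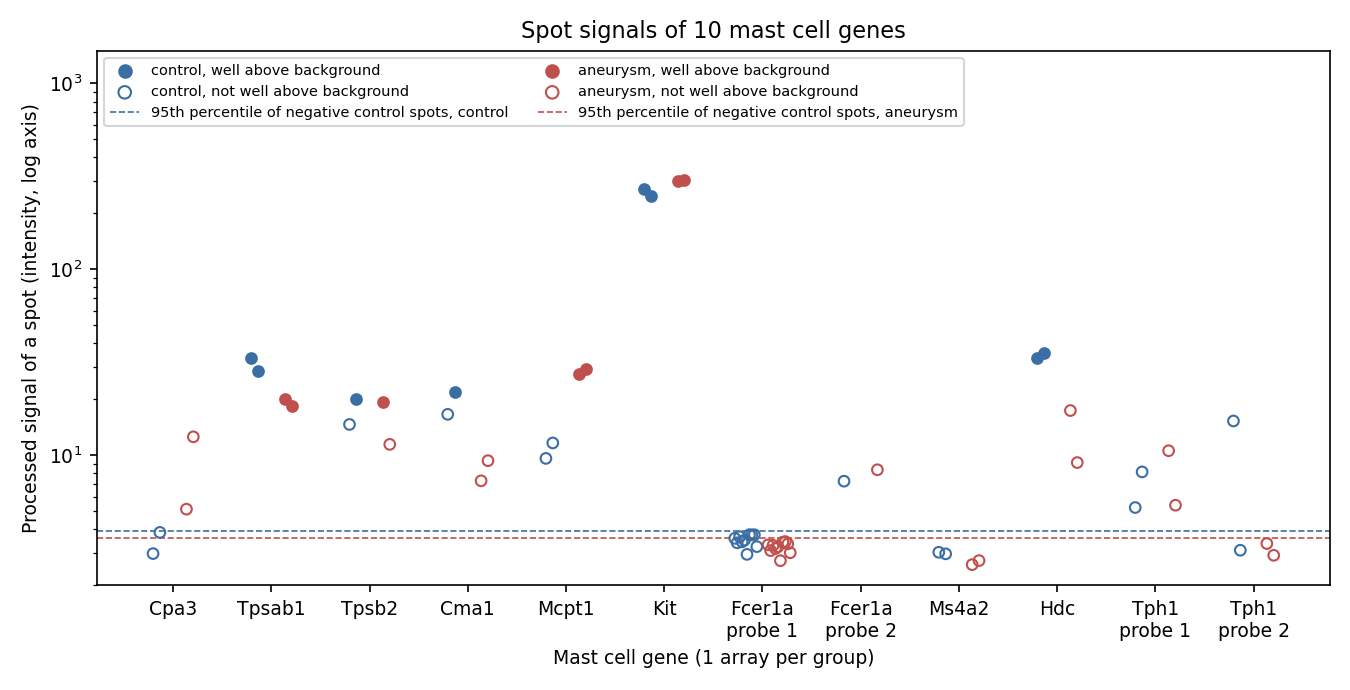
Processed signal of every spot of the 12 probes of the 10 mast cell genes (log axis, arbitrary scanner units), control and aneurysm arrays side by side; filled points are spots well above background, open points are not, and dashed lines mark the 95th percentile of each array's negative control spots. Kit stands alone at 249 to 302 units, Cpa3, Fcer1a, Ms4a2 and Tph1 have no filled point, and Hdc and Cma1 have filled points on the control array only.

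Differences are given below as log2 aneurysm minus control after each array was scaled to its own 75th percentile of non-control spots (621 and 801 units). Values after ± are spot errors, which come from how far repeat spots of an array lie apart and hold no variation between animals. A gene that passed the detection rule on 1 array alone has a bound. For Cma1, Mcpt1 and Hdc that bound equals the measured difference, because the dim spots still lay above the lowest signal called well above background (7.29 and 6.88 units), so it is an estimate and not a strict lower limit.

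Of the 6 members with a difference, 3 were at least 2-fold lower in the aneurysm library (Hdc, Cma1 and Tpsab1) and 1 was at least 2-fold higher (Mcpt1). Tpsb2 and Kit were within 2-fold. The background over all 11902 genes that had a difference was 3.91% lower and 0.882% higher by this threshold. Among the 1922 genes with mean signals under 50 units on both arrays, a limit that these members apart from Kit also met, the shares were 10.7% and 2.91%. That set was not matched more closely to these members, whose mean signals ran from 8.33 to 34.5 units without Kit. The median over the 6 members was −0.81, and the median over all genes was 0.0010, with 5969 genes above 0 and 5933 below. Over the 1922 genes under 50 units the median was −0.11, with 799 above 0 and 1123 below. The 6 are those that passed the detection rule, 3 of them on 1 array only, so this median does not stand for all 10. Those 3 (Hdc, Cma1 and Mcpt1) passed only on the array where they read higher, so the filter itself favours the direction in which they were called. With genes required to be well above background on both arrays, Tpsab1 (−1.05) alone of the members stayed past 2-fold. Repeat spots of the arrays did not overlap in 5 of the 6 after scaling, with the aneurysm spots lower in 4 and higher in 1. Over 9693 genes the same was true of 33.2% lower and 34.8% higher, so non-overlap of 2 spots against 2 is common on these arrays.

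**Figure D2:**
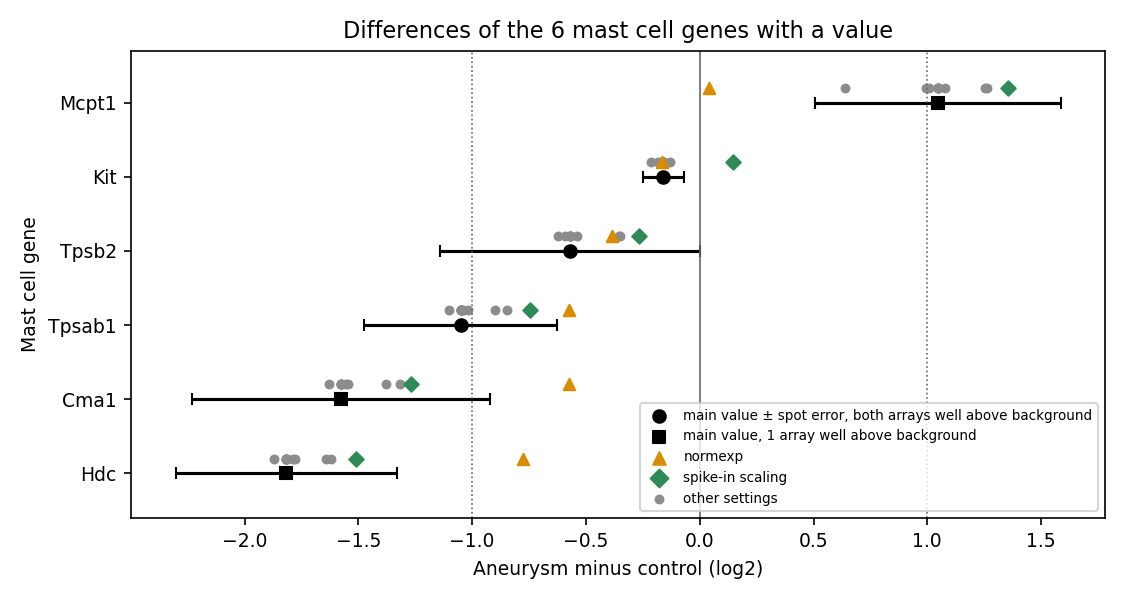
Log2 aneurysm minus control for the 6 mast cell genes with a difference, as black symbols with bars for the spot error (circles well above background on both arrays, squares on 1); triangles are normexp, diamonds spike-in scaling, grey points other alternatives, and dotted lines mark 2-fold. Hdc (−1.82), Cma1 (−1.58) and Tpsab1 (−1.05) lie beyond the lower line and Mcpt1 (1.05) just beyond the upper one, Cpa3, Fcer1a, Ms4a2 and Tph1 having no difference to plot.

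Kit, the SCF receptor that mast cells need to survive, was the brightest member in both libraries. Its spots read 271 and 249 units in the control and 298 and 302 in the aneurysm library, all 4 well above background. The aneurysm spots were higher as read and lower after scaling, with a difference of −0.16 ± 0.09. The sign turned to 0.15 when the arrays were scaled on the spike-in control spots, a scaling that moves the median of all genes by 0.31. Interstitial cells of Cajal, melanocytes and neurons also use Kit, and the arrays cannot say which cells carried it here.

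Fcer1a and Ms4a2, the chains particular to the high-affinity IgE receptor on mast cells and basophils, passed the detection rule on neither array. The first Fcer1a probe had 10 spots, which ran from 2.93 to 3.75 units in the control and from 2.71 to 3.44 in the aneurysm library, where 1 spot marked as an outlier was left out of the mean. Its second probe had 1 spot, at 7.26 and 8.37 units, both positive and significant by the less strict flag, the second being above every negative control spot of the aneurysm array. Ms4a2 read 3.01 and 2.95 units in the control and 2.58 and 2.72 in the aneurysm library. None of these spots was well above background, and those of Ms4a2 and of the first Fcer1a probe lay within the range of the negative controls. Where a member spot was not positive and significant, its processed signal lay close to the software's error for that spot. The Ms4a2 aneurysm spots had errors of 2.59 and 2.73 units, with background-subtracted signals of −3.14 and −0.86. Such values mark the floor and are not measured signal. No difference is given for either gene.

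The remaining parts of the IgE receptor pathway are shared with other leukocytes and passed the detection rule on at least 1 array. Among them, Lyn and Btk had mean signals under 50 units on both arrays. All 14 genes of the signalling list had a difference, 12 above 0 and 2 below, with 0 at least 2-fold changed in either direction and a median of 0.08, or −0.04 with normexp background correction. Over all genes 49.8% were below 0. Fcer1g, the gamma chain that many Fc receptors share, differed by 0.07. The 4 farthest from 0 were Lyn (0.45 ± 0.67, well above background in the aneurysm only), the kinase that starts the signal, the adaptor Gab2 (0.33), phospholipase Plcg2 (0.29) and the adaptor Lcp2 (0.25). Genes of macrophages, which share these components, differed by a median of 0.21 with 7 of 8 above 0, from 0.65 for Cd163 to −0.05 for Cd68. Their part in the IgE signalling values was not tested.

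The tryptases were dim but detected on both arrays. Tpsab1, a tryptase of the granule, read 33.6 and 28.4 units in the control and 20.1 and 18.4 in the aneurysm library, all well above background. The control spots were higher than both aneurysm spots. The difference was −1.05 ± 0.42, or 2.07-fold lower, and the scanner software's own spot errors gave ± 0.25. It fell short of 2-fold in 4 of 14 alternatives, at −0.90 with loess, −0.85 with quantile and −0.74 with spike-in scaling and −0.57 with normexp. Tpsb2, the neighbouring tryptase gene on chromosome 10, read 14.7 and 20.05 units in the control and 19.4 and 11.5 in the aneurysm library, with 1 of 2 spots on each array well above background. Its spots overlapped between the arrays, and its difference of −0.57 equalled its spot error of 0.57. The pair are close paralogs and the probe sequences were not used here, so a share of one tryptase's signal in the other's probe cannot be judged. Tpsg1, the membrane-anchored gamma tryptase, had 1 spot per array, at 3.61 and 3.19 units, and was not well above background.

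Cma1 and Mcpt1, both chymases, differed in opposite directions. Cma1, the alpha-chymase, read 16.6 and 22.0 units in the control, where 1 of 2 spots was well above background, and 7.30 and 9.36 in the aneurysm library, where 0 were. The control spots were higher than both aneurysm spots, by 2.98-fold after scaling (−1.58 ± 0.66, software error 0.45). Mcpt1, a beta-chymase of connective tissue mast cells, read 9.63 and 11.7 units in the control and 27.5 and 29.0 in the aneurysm library, where both spots were well above background. It was 2.07-fold higher after scaling (1.05 ± 0.54, software error 0.35). Under normexp background correction with an offset of 50, which shrinks dim differences by design, Cma1 was −0.57 and Mcpt1 0.04. Mcpt1 also sat at 0.99, just under 2-fold, when the 75th percentile was taken over spots well above background on both arrays. The name is uncertain: the gene matched to this probe lists both rMCP-1 and rMCP-2 among its older names in RefSeq, and Mcpt1l1, a near copy next to it, lists Mcpt1 as well and had no matched probe. The 2 promoters printed above share the GATAA match and most of their letters.

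Both chymases lie in one protease cluster on chromosome 15. Only genes with names that begin with Cma1 or Mcpt were taken from this region, and other genes in it were not counted. RefSeq orders 12 such genes from Cma1 to Mcpt10, of which 8 had a matched probe. Of the 5 among these 12 with a difference, 4 were above 0 and Cma1 alone was below. Mcpt8, a protease of basophils in rodents, read 193 and 195 units in the control and 301 and 305 in the aneurysm library, a difference of 0.27 ± 0.11. Mcpt9 read 71.6 and 91.5 units in the control and 119 and 141 in the aneurysm library (0.31 ± 0.16). Mcpt10, separated from Mcpt1 by Mcpt1l1, read 10.6 and 17.3 units against 26.7 and 27.7 and was well above background in the aneurysm only (0.63 ± 0.56). None of these 3 reached 2-fold. Mcpt4, the beta-chymase of connective tissue mast cells in the mouse, read 4.47 and 8.32 units in the control and 4.61 and 3.35 in the aneurysm library and was not well above background, nor were Mcpt3 and Mcpt8l2. The opposite directions of Cma1 and Mcpt1 were read at signals under 30 units, and their difference from each other was not tested.

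Cpa3, the carboxypeptidase that is stored beside chymase and serves as a defining mast cell marker, did not pass the detection rule on either array. Its spots read 2.96 and 3.85 units in the control and 5.14 and 12.6 in the aneurysm library. The control spots lay in the range of the negative controls, while the higher aneurysm spot was above every negative control spot of that array (5.61 at most). All 4 spots carried the less strict flag. With dim probes admitted, the measured difference would be 0.88, with a software error of 1.09, which is larger than the difference. Of the defining mast cell genes, Cpa3, Fcer1a and Ms4a2 were thus not well above background in either library. Among the other members for granule proteases, Tpsab1 and Tpsb2 passed in both libraries, Cma1 in the control only and Mcpt1 in the aneurysm only, all at mean signals under 50 units.

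Other granule and protease genes differed little. Of 13 on the array, 10 had a difference, 7 above 0 and 3 below, with 0 at least 2-fold higher, 1 at least 2-fold lower and a median of 0.20. Serglycin (Srgn), the granule proteoglycan that many leukocytes and endothelial cells also make, was the brightest of those named, at mean signals of 1932 and 3370 units and a difference of 0.43 ± 0.03. The gene at least 2-fold lower was Gzmb, a granzyme of cytotoxic lymphocytes (−1.40). That value rests on 1 of its 2 control spots, which read 249 and 3.80 units against 11.9 and 19.0 in the aneurysm library. Without probes whose repeat spots lay over 4-fold apart, an alternative added after the data had been seen, no gene of the related lists was 2-fold lower.

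Hdc, the enzyme that makes histamine, had the most negative value among the members. It read 33.5 and 35.4 units in the control, both well above background, and 17.4 and 9.15 in the aneurysm library, neither of them so. The control spots agreed closely with each other and exceeded both aneurysm spots. The bound was −1.82 ± 0.49 (software error 0.31), or 3.52-fold lower. It ran from −1.87 to −0.78 over the 13 alternatives that gave a value, all below 0, and was under 2-fold with normexp alone. Basophils, stomach enterochromaffin-like cells and some neurons also express Hdc.

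Histamine receptor and clearance genes were mixed and mostly dim. Of 6 on the array, 3 had a difference: Hrh1, the receptor of smooth muscle and endothelium (−1.84, well above background in the control only), Hrh3, a receptor of neurons (−0.27, and 0.03 with spike-in scaling), and Hrh4, the receptor of leukocytes including mast cells (0.52). Hrh1 rests on 1 control spot, at 112 units beside 3.54, against 8.06 and 6.37 in the aneurysm library. Without probes of such discordant spots the list's median moved from −0.27 to 0.13. Over all alternatives it ran from −0.75, with no filter on dim probes, to 0.13, and 4 of 14 turned its sign. The clearance genes Hnmt, Aoc1 and Slc22a3 were not well above background.

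Tph1, the serotonin-making enzyme of mast cells, gut and pineal gland, was not well above background in any spot. Its first probe read 5.24 and 8.15 units in the control and 10.6 and 5.39 in the aneurysm library, so the spots overlapped. Its second probe read 15.3 and 3.09 units in the control and 3.36 and 2.90 in the aneurysm library, where a single control spot stood apart. No difference is given. Tph2, the neuronal enzyme, and Slc6a4, the serotonin transporter, passed on neither array as well.

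Of the 11 genes for serotonin synthesis, transport and receptors, 7 had a difference, 5 above 0 and 2 below, with 2 at least 2-fold higher, 0 at least 2-fold lower and a median of 0.16. The higher pair were the receptors Htr2c (1.26) and Htr1b (1.14, well above background in the aneurysm only). Htr2c had a second probe, and the mean over both probes was −0.20. Both were small under normexp, at 0.37 and 0.10. Ddc, the decarboxylase that completes serotonin and dopamine synthesis, was −0.93, and Maoa, which degrades serotonin, was 0.19. The vesicular transporter Slc18a2, which loads histamine and serotonin into granules, was 0.04, and −0.08 with normexp.

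Genes that support and regulate mast cells were close to level. The list of growth factors and their receptors had 7 differences of 12 genes on the array, 6 above 0 and 1 below, with 0 at least 2-fold changed and a median of 0.11. Kitlg, the ligand of Kit, was 0.35, and ranged from −0.05 with the mean over its probes to 0.65 with spike-in scaling. The others farthest from 0 were the kinase subunit Pik3cd (a bound of 0.54 ± 0.56 in the aneurysm only, measured 1.11), Tgfb1 (0.19) and Il3ra (−0.16, and 0.15 with spike-in scaling), while Il3, Il4 and Il9 were not well above background. Among regulators and surface receptors, 11 of 13 had a difference, 6 above 0 and 5 below, with 0 at least 2-fold changed and a median of 0.09, or −0.05 with normexp. The prostaglandin E2 receptor Ptger3 was −0.88. Alox5ap, needed for leukotriene synthesis, was 0.36. The IL-33 receptor Il1rl1 had a bound of 0.24 ± 0.56, in the aneurysm only (measured 0.87), and Hpgds, the prostaglandin D2 synthase of mast cells, was 0.24. Gata2 was 0.12.

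Targets of the proteases were also described from a list. Of 13 protease target and angiotensin genes, 10 had a difference, 7 above 0 and 3 below, with 1 at least 2-fold higher, 0 at least 2-fold lower and a median of 0.23. F2rl1, the receptor PAR2 that tryptase cleaves, was 1.01 and well above background in the aneurysm only, but 0.08 with normexp. Agt, the angiotensin precursor, was −0.97, and the angiotensin receptor Agtr1b was 0.80 ± 0.48, or 0.14 with normexp. Over all 90 related genes, 82 were on the array and 20 of these were not well above background. Of the 62 with a difference, 44 were above 0 and 18 below, with 3 at least 2-fold higher, 2 at least 2-fold lower and a median of 0.11, which was −0.01 with normexp. Over all genes with a difference 5969 were above 0 and 5933 below, with 0.882% at least 2-fold higher and 3.91% lower.

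**Figure D3:**
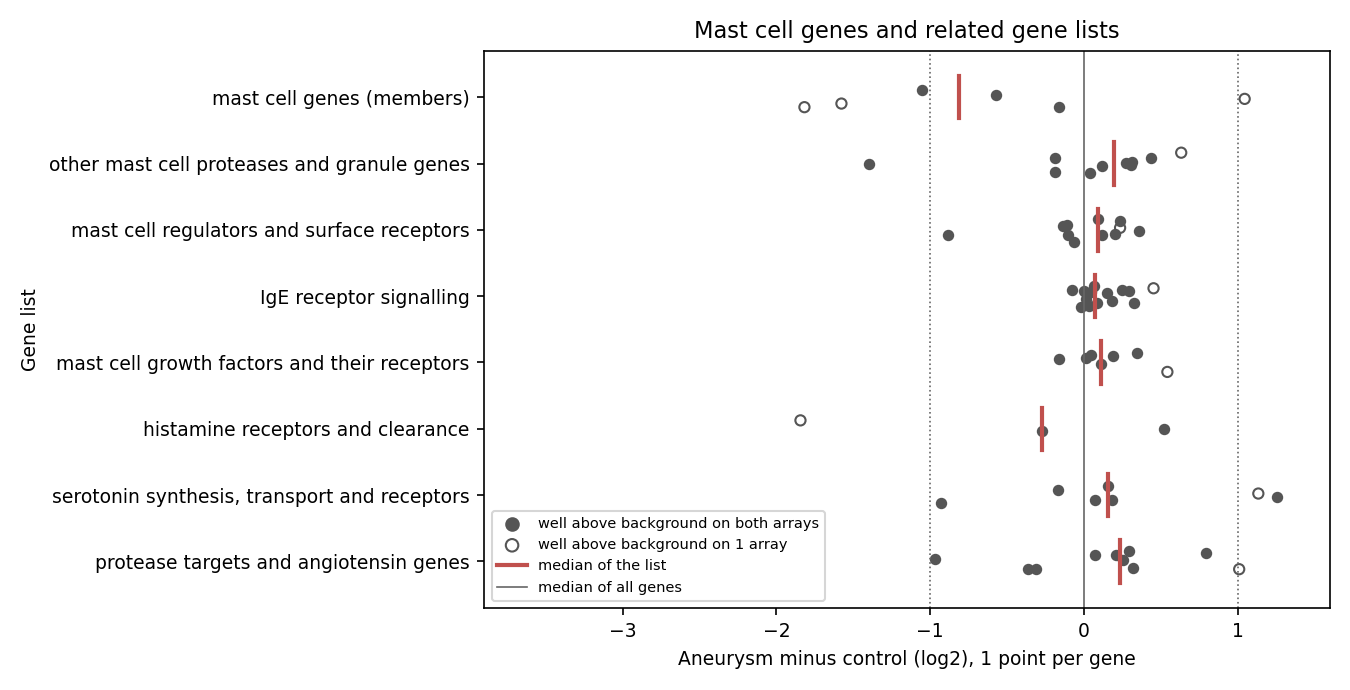
Log2 aneurysm minus control for the mast cell genes (top row) and 7 related lists, 1 point per gene, filled where well above background on both arrays and open where on 1; red bars are list medians and dotted lines mark 2-fold. The members' median is −0.81 over 6 genes, while the other medians lie between −0.27 and 0.23, and the low points of the granule and histamine rows (Gzmb, Hrh1) rest on 1 control spot each.

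Markers of cells other than mast cells went in different directions by cell type, and their part in the members' values was not tested. Genes listed for liver, oligodendrocytes and pituitary were lower in the aneurysm library, in the same direction as Hdc, Cma1 and Tpsab1. All 10 hepatocyte genes were at least 2-fold lower (median −5.44, summed signal 28311 units in the control and 6843 in the aneurysm). Ttr alone gave 13156 and 6364 of these units, with the smallest change of the list (−1.42). At least 2-fold lower were also 5 of 6 oligodendrocyte genes (median −1.18, sums 103648 and 67998) and 3 of 5 pituitary genes (median −1.41, sums 6393 and 1938). Neuronal genes were mixed, with 2 of 7 at least 2-fold lower, a median of −0.17 and sums of 2159 and 2259. Arterial wall was present in both, with 8 of 8 smooth muscle genes measured (median 0.28, sums 79105 and 120402), 7 endothelial genes (median 0.17) and 6 fibroblast genes (median 0.48).

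Other cell types that use the same genes were partly at the floor. Of the basophil and eosinophil genes, 3 of 6 on the array had a difference (median 0.27, sums 285 and 420): Mcpt8, Prss34 (0.80, in the aneurysm only, and 0.03 with normexp) and Prg2 (−0.21, and 0.09 with spike-in scaling), while Epx, Ccr3 and Il5ra were not well above background. For serotonin and histamine neurons, Tph2, Fev and Slc6a4 were not well above background, leaving Lhx9 (−0.40, and 0.23 with normexp) and Slc18a2 (sums 96.7 and 122). Pinealocyte genes, which share Tph1, had a median of −0.32 over 5 (sums 144 and 142), from Otx2 (−1.08) and Aanat (−0.45) to Sag (0.66 ± 0.67, in the aneurysm only), with Crx and Gngt1 not well above background. Enterochromaffin-like and gut endocrine genes, which accompany Hdc in the stomach, had a median of −0.26 over 6 (sums 1913 and 2511), from Chga (−0.58) and Gast (−0.46) to Cckbr (1.06). For melanocytes, which share Kit, Mlana alone of 4 on the array had a value (a bound of 1.02 ± 0.51 in the aneurysm only, measured 1.44, and 0.07 with all spots of a probe required, sums 5.81 and 19.1), and Tyr, Tyrp1 and Slc45a2 were not well above background.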

How the data were processed

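Total RNA from 2 tissue samples was hybridised to 2 one-colour Agilent arrays, which shared a slide and a scan per the file headers. The authors deposited the scanner output, made with Feature Extraction 10.10.1.1, and the values used here are its processed spot intensities on a linear scale. The output also holds a background-subtracted signal for each spot. How this background was set is not stated in the sources used here. Samples were grouped by title. Of the 30367 probes, 18006 matched 1 gene by accession without version in a RefSeq table (GRCr8, names only), 0 matched several and 12361 none. Of the non-control spots, 74.7% and 76.4% were well above background, and 0 spots were saturated.

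Outlier spots (484 and 573) were dropped, log2 processed signal minus the array's 75th percentile was averaged over a probe's spots, and a gene took its brightest probe among those that passed on at least 1 array. The spot error pools repeat spots in 20 signal bins. The threshold was 2-fold, and the number of arrays limits the precision. The members and lists were chosen with earlier results of these data known. Named genes were the members and, per list, up to 4 with the largest absolute difference, plus defining markers at background; 1 gene that the rule names is not reported here. Genes further named for their role (Mcpt8, Mcpt9, Slc18a2, Gata2, Fcer1g and the like) were chosen after their values were seen. Normexp (limma 3.58.1, R 4.3.3) had been meant for a column of mean signals that was not used here, and was run on processed signals. Promoter pairs were aligned with Biopython 1.88. The code was tested on simulated data.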

Additional observations from a re-analysis of the deposited data

How the results depend on the processing

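Signals near the floor and 1 array per group limit these results: no alternative supplies the spread between animals. The 4 members that passed on neither array have a value with no filter alone: Cpa3 0.88, Fcer1a −0.16, Ms4a2 −0.54 and Tph1 −0.16. Fcer1a and Tph1 took their brighter probe here, and their other probes gave −0.50 and −1.51. The value of Ms4a2 came mostly from spots that were not positive and significant. No paired analysis was possible because each group holds 1 array. The 5 members below 0 stayed so under each alternative that gave a value, except Kit with spike-in scaling (0.15), and Mcpt1 stayed above 0, from 0.04 to 1.35.

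The 1 member at least 2-fold higher and the 3 lower became 0 and 0 with normexp and at 4-fold, and 0 and 1 with genes well above background on both arrays only. The count of higher members was also 0 with the percentile over spots well above background on both arrays, and with all spots of a probe required. The lower members lost Tpsab1 with quantile (−0.85), loess (−0.90) and spike-in scaling (−0.74). With all spots required they lost Cma1, which had no value. The related genes, 3 higher and 2 lower, became 0 higher with normexp, 1 and 1 with both arrays required, 6 and 5 with no filter, 5 and 5 at 1.5-fold and 0 and 0 at 4-fold. They became 1 and 0 with all spots required, and 0 lower without probes of discordant spots. These last 2 settings were added after seeing the data, as were the background-subtracted signal and any spot flagged.

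Of the whole array, all genes at least 2-fold higher numbered 105, and all genes at least 2-fold lower 465. Normexp gave 16 and 213, both arrays required 51 and 237, no filter 183 and 756, 1.5-fold 506 and 1003, and 4-fold 2 and 178. The higher count was 165 with quantile, 165 with loess, 311 with spike-in scaling and 59 with all spots required. The lower share of calls was 81.6%, against 93.0% with normexp, 71.1% with quantile, 71.6% with loess and 51.6% with spike-in scaling. Detected members in the control (5) numbered 3 with all spots flagged and 10 with the positive and significant flag, which gave 9 in the aneurysm (4) and 0 in neither (4). Htr2c turned from 1.26 to −0.20 with the mean over its probes. Where no construction of the alternative shows it, the cause was not tested.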
